A study of Mus musculus with 4 samples.

Results

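Genes of motile cilia and of the ependyma were measured in nucleus accumbens tissue and set against dorsal striatum tissue, both from aged mice. The rule that chose the genes used their names and no measured value. It took the axonemal dynein heavy chains (Dnah), the Dnaic intermediate chains, Dnali1, the tektins 1 to 5, every Rsph gene, and Foxj1, Rfx2, Rfx3, Ccdc39, Ccdc40, Ak7, Enkur, Dynlrb2, Spag6, Spag16, Spag17, Hydin, Ccdc153, Tmem212, Rarres2 and Mia. This gave 45 genes among 32531 gene rows. Accumbens had 2 libraries of total RNA and dorsal striatum had 2, all of the input kind, which is taken here as RNA not pulled down with tagged ribosomes. All 4 came from the Drd1-EGFP/Rpl10a line CP73 at an age of over 20 months, so the same transgene, a tagged ribosomal protein under the promoter of Drd1, was present in both regions. The labels do not say whether libraries came from separate animals, whether animals were pooled, or how the input was prepared. The p-values therefore rest on the spread between these 4 libraries alone, which may be technical.

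Ependymal cells line the brain ventricles and carry tufts of motile cilia that move cerebrospinal fluid. A motile cilium is built on an axoneme of microtubule doublets around a central pair. Outer and inner dynein arms drive the beat, radial spokes and the central pair regulate it, and rulers and tektins hold the repeat. The transcription factor Foxj1 and the RFX family switch these genes on. Neurons and most other brain cells carry a primary cilium instead, which lacks dynein arms and does not beat.

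Several of these genes had lower levels in accumbens. The outer arm chain Dnah9, the inner arm chain Dnah7b, the light chain Dnali1, the spoke head gene Rsph4a, Ccdc40, Ak7, Enkur, Foxj1 and the ependymal marker Ccdc153 were each lower in both accumbens libraries than in either dorsal striatum library. The tektin gene Tekt5 was higher in both accumbens libraries, and others, among them Dnah1, Ccdc39 and Hydin, overlapped between regions. None of these differences passed the threshold over all genes. In edgeR's quasi-likelihood test 29 of the 45 genes passed the low-count filter and 0 had an adjusted p under 0.05, where 1.28% of all 14493 tested genes did. At an unadjusted p under 0.05 there were 9 lower and 1 higher, with 8.27% of all tested genes lower and 10.9% higher. DESeq2 and limma-voom each called Ccdc153 alone, lower in accumbens, which is 3.45% of the 29, and they called 5.62% and 2.97% of all tested genes. Leaving out an accumbens library raised the number of calls among all genes as well. Without accumbens replicate 1, 8 of 34 tested genes of the group (23.5%) were called, 7 of them lower (20.6%), against 18.2% of all tested genes called and 8.13% called lower. Without accumbens replicate 2, 12 of 32 (37.5%) were called, 11 of them lower (34.4%), against 28.9% and 13.5% of all tested genes. In these fits edgeR takes the lone accumbens library to vary like the dorsal striatum pair. Ak7, Ccdc153 and Foxj1 were called lower in both, while Dnah2 was called in opposite directions. Without dorsal striatum replicate 1, and without dorsal striatum replicate 2, the count was 0, with 0.71% and 1.09% of all tested genes called.

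Of all 45 genes, 21 (46.7%) were lower in both accumbens libraries than in either dorsal striatum library and 3 (6.67%) were higher in both. Among all rows with a count these shares were 26.0% and 19.3%. Of the 34 genes with 10 to 1000 counts in dorsal striatum, 16 (47.1%) were lower without overlap and 2 (5.88%) higher, against 26.2% and 21.2% of all rows in that range, which was set after the data were seen. The 3 higher ones were Rfx3, Spag6 and Tekt5, and with upper-quartile scaling or library size alone 1 was left. Among the 29 tested genes, 12 had a fitted level at least 2-fold lower in accumbens and 1 at least 2-fold higher, against 5.66% and 6.42% of all tested genes. The low-count filter lets a gene pass on the counts of either region alone. Most of the 12 had fewer than 10 counts in an accumbens library and passed through dorsal striatum, such as Ccdc153, with 0 and 0 counts against 26 and 44. The number 12 therefore depends on the filter. The median log2 fold change, accumbens over dorsal striatum, was -0.11 for the 29 genes and 0.02 for all tested genes, and 14 of the 29 lay within 0.3 of zero. This median was not stable: it ran from -1.08 to -0.13 with 1 library left out, and was -0.81 with limma-voom and -1.17 over all 45 genes without the low-count filter. Over the 15 genes with at least 10 counts in every library it was 0.09.

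**Figure D1:**
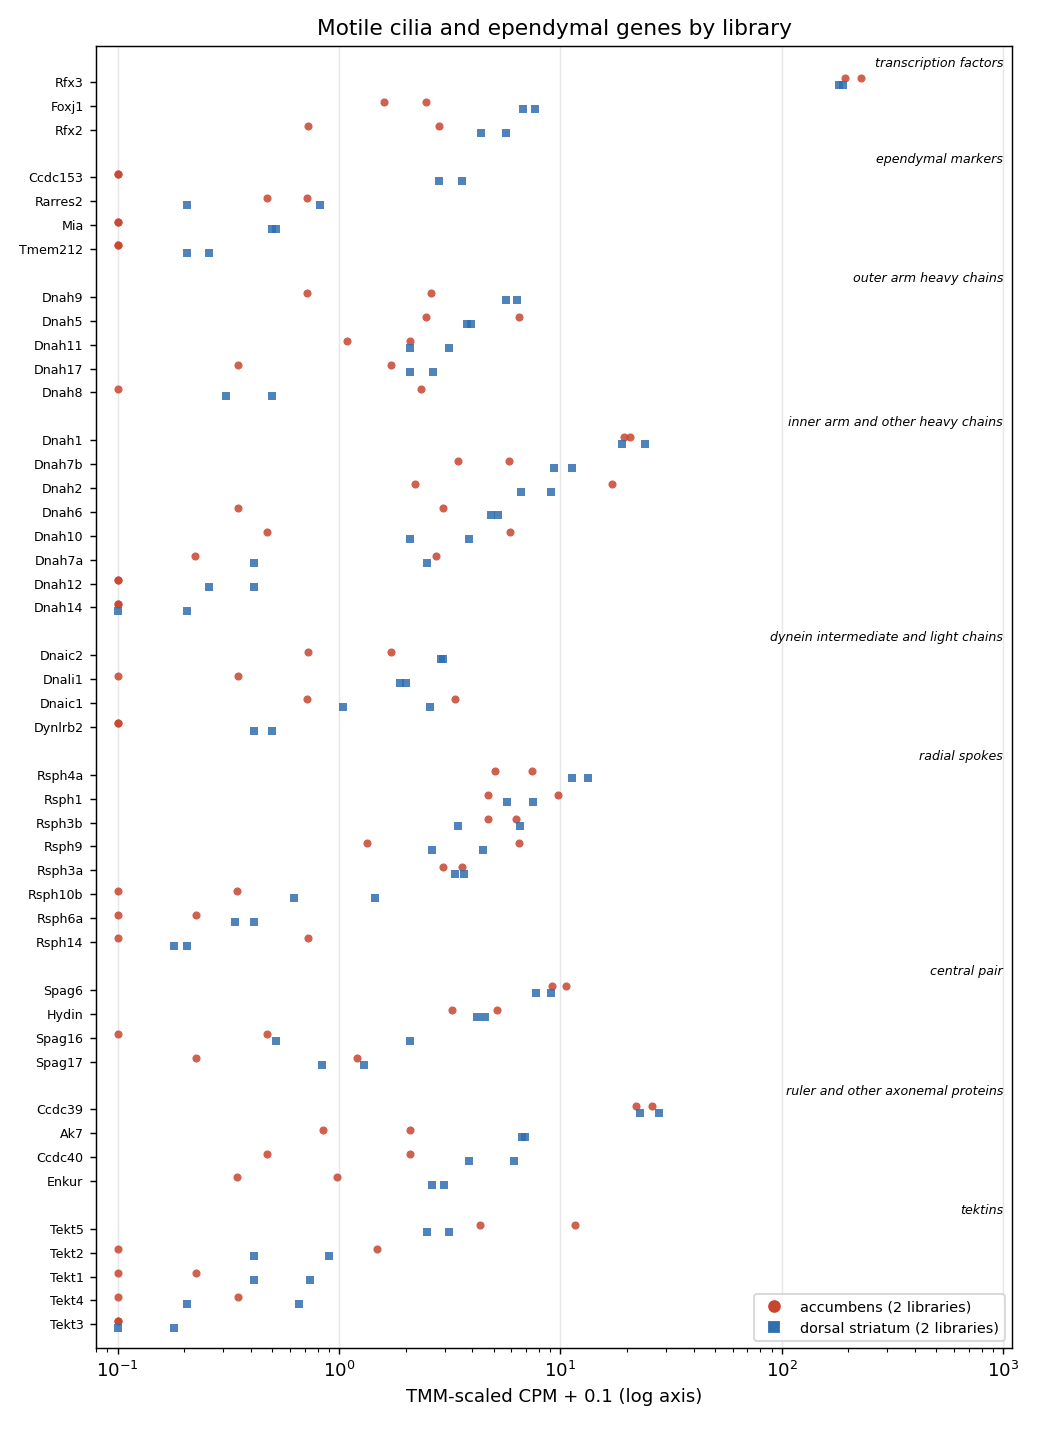
Level of each of the 45 genes in every library, as TMM-scaled CPM plus 0.1 on a log axis, grouped by role, with accumbens libraries as circles drawn above the squares of dorsal striatum. Foxj1, Ccdc153, Ak7, Ccdc40 and Enkur have both circles left of both squares, while Dnah1, Ccdc39 and Hydin overlap.

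The libraries differed in how many of these genes they detected. The accumbens libraries had at least 1 count for 30 and 37 of the 45 genes, and the dorsal striatum libraries for 44 and 44. Thinned to 8478403 counts each, the smallest total, the numbers were the same. All genes followed the same order, with 16905 and 17417 detected in accumbens and 19440 and 19074 in dorsal striatum after thinning. Totals assigned to genes were 8606099 and 8478403 in accumbens and 8991788 and 11849134 in dorsal striatum. The accumbens replicates also differed more from each other. The median fold between replicates of the 29 tested genes was 2.49 in accumbens and 1.22 in dorsal striatum, and over all 8146 tested genes in the same count range it was 1.58 and 1.22. Of the 29 genes, 17 differed more than 2-fold between the accumbens replicates and 2 between the dorsal striatum replicates. Reads of the ribosomal RNA precursor Rn45s made up 5.61% and 5.94% of counts in accumbens and 2.03% and 3.34% in dorsal striatum. The part that detection, spread and Rn45s have in the results was not tested. In bulk RNA, fewer cells of a type and less RNA per cell cannot be told apart.

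Summed over the 45 genes, the level was 321 and 368 CPM in the accumbens libraries and 346 and 378 CPM in the dorsal striatum libraries. That is 344 ± 33.4 against 362 ± 22.7 CPM (SD, n = 2 each), a log2 ratio of -0.07, and the ranges of the regions overlapped. Rfx3 supplied 60.5% and 61.9% of the gene group's counts in accumbens and 52.4% and 50.0% in dorsal striatum. Without Rfx3 the sum was 127 and 140 CPM in accumbens and 165 and 189 CPM in dorsal striatum, a log2 ratio of -0.41, with no overlap. An exact two-sided permutation test of 2 against 2 libraries cannot go below p = 0.33, and no test of the sums was run.

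Of the transcription factors, Foxj1 is the master regulator of motile ciliogenesis (chromosome 11, 116330704 to 116335399, GRCm38). It had 12 and 19 counts in accumbens and 72 and 84 in dorsal striatum, or 1.49 and 2.38 CPM against 7.57 and 6.69 CPM. Both accumbens libraries were lower, with a log2 fold change of -1.88 (SE 0.55, edgeR adjusted p = 0.127). The adjusted p was 0.0148 without accumbens replicate 1, 0.00142 without accumbens replicate 2, 0.971 without dorsal striatum replicate 1 and 0.757 without dorsal striatum replicate 2. Rfx2, an RFX factor of multiciliated cells, stood at 2.73 and 0.625 CPM in accumbens and 5.57 and 4.30 CPM in dorsal striatum (-1.55 on the log2 scale, SE 0.78, edgeR adjusted p = 0.323). Its 2 accumbens values differed more than those of dorsal striatum, and the log2 fold change was -2.95 without accumbens replicate 1 (adjusted p = 0.00363) and -0.85 without accumbens replicate 2 (adjusted p = 0.187). Rfx3, an RFX factor that also serves primary cilia (chromosome 19, 27761721 to 28011166), stood at 194 and 228 CPM in accumbens and 182 and 189 CPM in dorsal striatum (0.19 on the log2 scale, SE 0.14, edgeR adjusted p = 0.515). Per kilobase of the longest coding transcript it had the highest level of the group, 23.1 CPM per kb in accumbens and 20.3 in dorsal striatum. Foxj1 had 0.736 and 2.72 CPM per kb in the same regions.

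The ependymal markers were scarce in both regions. Ccdc153, a coiled-coil protein gene used as a marker of ependymal cells (chromosome 9, 44240676 to 44247306), had 0 and 0 counts in accumbens and 26 and 44 in dorsal striatum, or 2.73 and 3.51 CPM there. Against a floor of 3 counts over both accumbens libraries its level was at least 17-fold lower in accumbens. The edgeR adjusted p was 0.0591, and it was 0.00617 in DESeq2 and 0.0467 in limma-voom. Mia, a small secreted protein gene, had 0 and 0 counts in accumbens and 4 and 5 in dorsal striatum, and the membrane protein gene Tmem212 had 0 and 0 against 1 and 2. Rarres2, which encodes chemerin, had 5 and 3 counts in accumbens and 1 and 9 in dorsal striatum, so its groups overlapped. These last 3 did not pass the low-count filter, so of the 4 markers only Ccdc153 was tested.

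Promoters were read for 40 of the 45 genes from the RefSeq table of GRCm38.p6, as the 250 bases before each start site. The core of the X-box bound by RFX factors, GTTGCC on either strand, occurred in 13 of the 40 (32.5%), against 11.8% of 27025 genes. The forkhead core TGTTTAC, searched the same way, occurred in 3 (7.5%, against 3.54%). A match describes letters, not a bound site. The stretches shown are those of the 4 genes with the largest fitted fold lower in accumbens and of the gene with the largest fold higher, with matches in capitals.
Ccdc153, chr9:44240427-44240676, plus strand: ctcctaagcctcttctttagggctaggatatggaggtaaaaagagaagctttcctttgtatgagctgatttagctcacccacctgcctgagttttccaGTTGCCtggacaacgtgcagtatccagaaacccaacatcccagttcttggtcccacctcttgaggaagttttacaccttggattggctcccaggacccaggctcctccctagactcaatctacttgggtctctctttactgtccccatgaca
Dnali1, chr4:125065658-125065907, minus strand: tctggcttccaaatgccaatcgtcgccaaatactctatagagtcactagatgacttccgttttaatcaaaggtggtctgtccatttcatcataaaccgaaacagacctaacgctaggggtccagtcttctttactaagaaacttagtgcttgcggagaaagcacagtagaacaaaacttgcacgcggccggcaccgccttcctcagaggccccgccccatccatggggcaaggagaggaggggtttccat
Ak7, chr12:105705732-105705981, plus strand: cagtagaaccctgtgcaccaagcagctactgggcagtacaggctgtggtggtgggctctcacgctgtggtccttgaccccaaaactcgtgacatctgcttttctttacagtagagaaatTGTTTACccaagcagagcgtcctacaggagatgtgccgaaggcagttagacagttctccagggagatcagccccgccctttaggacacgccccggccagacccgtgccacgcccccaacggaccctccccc
Enkur, chr2:21205366-21205615, minus strand: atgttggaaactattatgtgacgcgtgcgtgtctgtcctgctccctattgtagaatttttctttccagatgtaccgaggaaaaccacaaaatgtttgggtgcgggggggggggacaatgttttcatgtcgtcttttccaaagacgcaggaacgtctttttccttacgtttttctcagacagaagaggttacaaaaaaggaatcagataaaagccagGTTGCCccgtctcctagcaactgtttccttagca
Tekt5, chr16:10395456-10395705, minus strand: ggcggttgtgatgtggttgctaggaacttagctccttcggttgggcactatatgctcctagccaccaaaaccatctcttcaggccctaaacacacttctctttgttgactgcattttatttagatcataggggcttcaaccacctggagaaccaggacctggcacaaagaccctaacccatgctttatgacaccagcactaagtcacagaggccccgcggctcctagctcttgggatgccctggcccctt
The core GTTGCC stood in the promoters of Ccdc153 and Enkur and the forkhead core in that of Ak7. Those of Dnali1 and Tekt5 held none of these letters.

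Outer dynein arm heavy chains, the motors that give the cilium most of its power, were mixed. Dnah9 (chromosome 11, 65831282 to 66168551) had 0.619 and 2.50 CPM in accumbens and 5.57 and 6.3 CPM in dorsal striatum. Both accumbens libraries were lower, with a log2 fold change of -1.92 (SE 0.73, edgeR adjusted p = 0.210). It was -1.25 without accumbens replicate 1 (adjusted p = 0.0590) and -3.24 without accumbens replicate 2 (adjusted p = 4.60e-04). Dnah5 had 6.44 and 2.38 CPM in accumbens and 3.68 and 3.83 CPM in dorsal striatum, so that 1 accumbens library lay on each side (log2 fold change 0.23, SE 0.64, edgeR adjusted p = 0.889). Dnah11 had 0.991 and 2.00 CPM against 2.00 and 3.03 CPM (-0.75, SE 0.78, edgeR adjusted p = 0.658). Dnah17 was lower without overlap at 1.61 and 0.250 CPM against 2.00 and 2.55 CPM. Dnah8 had 0 and 18 counts in accumbens and 2 and 5 in dorsal striatum, and was not tested.

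Inner arm heavy chains shape the bend of the beat. Dnah7b (chromosome 1, 46066315 to 46373546) had 3.34 and 5.75 CPM in accumbens and 9.25 and 11.2 CPM in dorsal striatum, a log2 fold change of -1.17 (SE 0.44, edgeR adjusted p = 0.206). Dnah7b has a close copy in Dnah7a, and reads shared by them may be split by the counting. Dnah7a had 1 and 21 counts in accumbens and 3 and 30 in dorsal striatum, with the groups overlapping. Dnah6 was also lower without overlap, at 2.85 and 0.250 CPM against 5.15 and 4.78 CPM (-1.67, SE 0.93, edgeR adjusted p = 0.373). Its 2 accumbens values lay far apart.

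Other inner arm chains did not separate the regions. Dnah1 (chromosome 14, 31260375 to 31323896), with the highest level per kilobase among the heavy chains, had 20.6 and 19.3 CPM in accumbens and 18.9 and 24.0 CPM in dorsal striatum. The fitted log2 difference was -0.11 (SE 0.26, edgeR adjusted p = 0.869). Dnah2 had 2.11 and 17 CPM in accumbens and 6.51 and 9.00 CPM in dorsal striatum (0.30, SE 0.77, edgeR adjusted p = 0.879). One accumbens library was below and the other above both dorsal striatum libraries, so the direction of Dnah2 depended on the library. Its log2 fold change was 1.12 without accumbens replicate 1 (adjusted p = 0.00860) and -1.89 without accumbens replicate 2 (adjusted p = 0.00311). Dnah10 showed the same kind of split, with 47 and 3 counts in accumbens and 19 and 47 in dorsal striatum. Dnah12 had 0 and 0 counts against 3 and 2, and Dnah14 had 0 and 0 against 1 and 0. Per kilobase the heavy chains lay between 0.00384 (Dnah14) and 1.67 CPM per kb (Dnah1) in dorsal striatum.

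Among the smaller dynein subunits, Dnali1, a light intermediate chain gene of the inner arm (chromosome 4, 125055338 to 125065703), had 0 and 2 counts in accumbens and 17 and 24 in dorsal striatum. Pooled over libraries that is 14.9-fold lower in accumbens, with an exact 95% interval of 3.88 to 127 that covers counting error only. The edgeR adjusted p was 0.155. The outer arm intermediate chain gene Dnaic2 had 1.61 and 0.625 CPM in accumbens and 2.84 and 2.79 CPM in dorsal striatum, lower without overlap (log2 fold change -1.32, SE 0.80, edgeR adjusted p = 0.416). Its partner Dnaic1 had 0.619 and 3.25 CPM against 0.946 and 2.47 CPM, with overlap. Dynlrb2, a roadblock light chain gene, had 0 and 0 counts against 3 and 5.

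Radial spokes connect the doublets to the central pair. Rsph4a, a spoke head gene (chromosome 10, 33905111 to 33916021), had 4.95 and 7.38 CPM in accumbens and 13.2 and 11.2 CPM in dorsal striatum. Both accumbens libraries were lower, with a log2 fold change of -0.99 (SE 0.39, edgeR adjusted p = 0.219). The other spoke genes with enough counts did not follow it. Rsph1, also of the spoke head, had 9.66 and 4.63 CPM in accumbens and 5.67 and 7.41 CPM in dorsal striatum (0.12, SE 0.49, edgeR adjusted p = 0.926). Rsph9 had 1.24 and 6.38 CPM against 2.52 and 4.38 CPM, so its accumbens values enclosed those of dorsal striatum. The close copies Rsph3a and Rsph3b had 2.85 and 3.50 CPM and 6.19 and 4.63 CPM in accumbens, against 3.26 and 3.59 CPM and 3.36 and 6.45 CPM in dorsal striatum. Reads of such copies may be split between them. Rsph10b, Rsph14 and Rsph6a had 0 to 5 counts per accumbens library and 1 to 17 per dorsal striatum library.

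**Figure D2:**
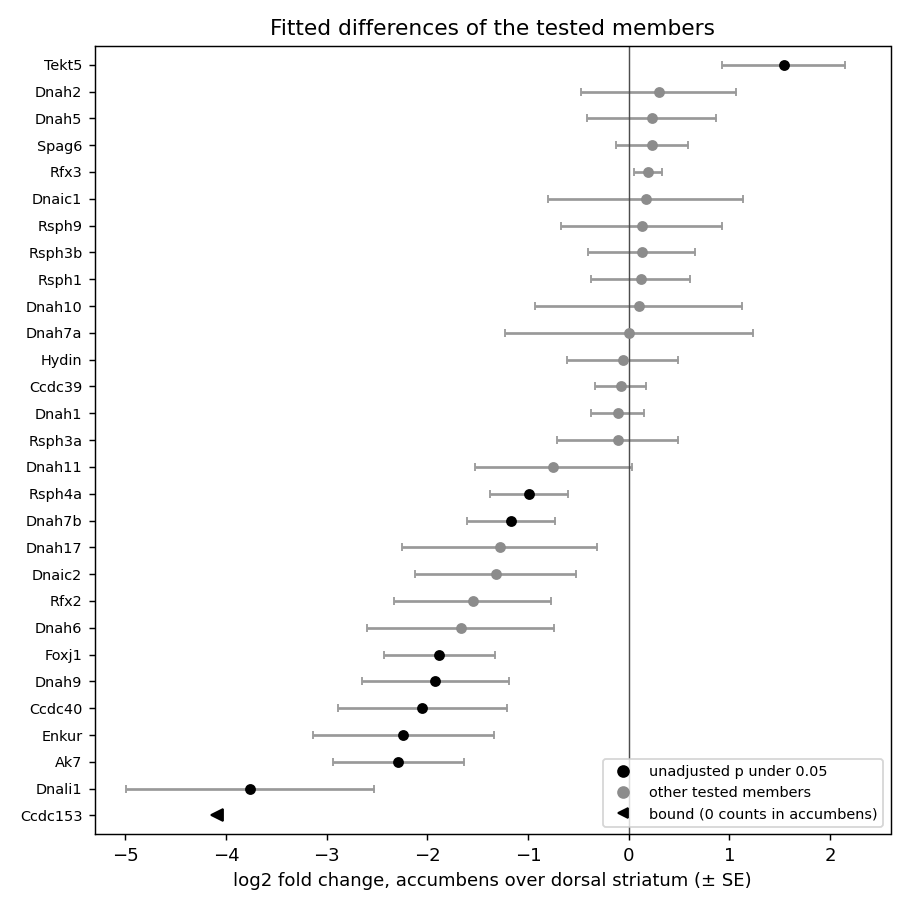
Fitted log2 fold change, accumbens over dorsal striatum, with its SE for the 29 tested genes. The triangle marks Ccdc153 at its bound of -4.09, which takes the floor of 3 counts for accumbens. Black marks have an unadjusted p under 0.05, and 9 of these lie left of zero and Tekt5 lies right of it.

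Central pair genes with enough counts had small fitted differences. Spag6, the gene of a scaffold protein of the central pair, had 9.04 and 10.5 CPM in accumbens and 7.67 and 9.00 CPM in dorsal striatum (0.23 on the log2 scale, SE 0.36, edgeR adjusted p = 0.794). Hydin, whose loss causes hydrocephalus in mice, had 5.08 and 3.13 CPM against 4.10 and 4.46 CPM (-0.06, SE 0.55, edgeR adjusted p = 0.971). The intervals of these differences are wide, so they do not show equal levels. Spag16 had 0 and 3 counts in accumbens and 4 and 25 in dorsal striatum, and Spag17 had 9 and 1 against 7 and 15. Neither passed the low-count filter.

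The remaining axonemal genes held some of the largest differences. Ak7, an adenylate kinase gene of the axoneme (chromosome 12, 105705976 to 105782447), had 0.743 and 2.00 CPM in accumbens and 6.62 and 6.85 CPM in dorsal striatum. Both accumbens libraries were lower, with a log2 fold change of -2.29 (SE 0.65, edgeR adjusted p = 0.123). The adjusted p was 0.0235 without the low-count filter, 0.0107 without accumbens replicate 1, 2.64e-04 without accumbens replicate 2, and 0.844 and 0.748 without dorsal striatum replicates 1 and 2. Ccdc40, which with Ccdc39 forms the ruler that sets the axonemal repeat (chromosome 11, 119228572 to 119265238), had 0.372 and 2.00 CPM against 3.78 and 6.06 CPM (-2.05, SE 0.84, edgeR adjusted p = 0.238). Enkur, the enkurin gene (chromosome 2, 21180731 to 21205365), had 2 and 7 counts in accumbens and 24 and 36 in dorsal striatum (-2.24, SE 0.90, edgeR adjusted p = 0.229). These 3 genes summed to 1.36 and 4.88 CPM in accumbens and 12.9 and 15.8 CPM in dorsal striatum.

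Ccdc39, the partner of Ccdc40 in the ruler (chromosome 3, 33812362 to 33844310), did not share this pattern. It had 21.8 and 25.8 CPM in accumbens and 27.7 and 22.7 CPM in dorsal striatum, with overlap and a log2 fold change of -0.08 (SE 0.25, edgeR adjusted p = 0.898). Per kilobase its level was 6.59 CPM per kb in accumbens and 7.0 in dorsal striatum, and that of Ccdc40 was 0.238 and 0.988. Exons of Ccdc39 overlap those of Ttc14 on the opposite strand in GENCODE M21, and no source used here gives the strand setting of the counting, so reads of the pair cannot be told apart. Of the 45 genes, 21 have exons that overlap another annotated gene.

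Tektins are filament proteins of the doublet wall. Tekt5 (chromosome 16, 10357948 to 10395490) had 93 and 34 counts in accumbens and 29 and 30 in dorsal striatum, or 11.5 and 4.25 CPM against 3.05 and 2.39 CPM. Both accumbens libraries were higher, with replicate 1 the highest, and the fitted log2 difference was 1.54 (SE 0.61, edgeR adjusted p = 0.222). It was 0.65 without accumbens replicate 1 (adjusted p = 0.394) and 2.09 without accumbens replicate 2 (adjusted p = 3.09e-04), so its size rested on replicate 1. Tekt1 had 0 and 1 counts in accumbens and 3 and 8 in dorsal striatum, and Tekt2 had 0 and 11 against 3 and 10. Tekt3 and Tekt4 had 0 to 2 counts per accumbens library and 0 to 7 per dorsal striatum library. Tekt1 was lower in both accumbens libraries, opposite to Tekt5, but on too few counts for a test.

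**Figure D3:**
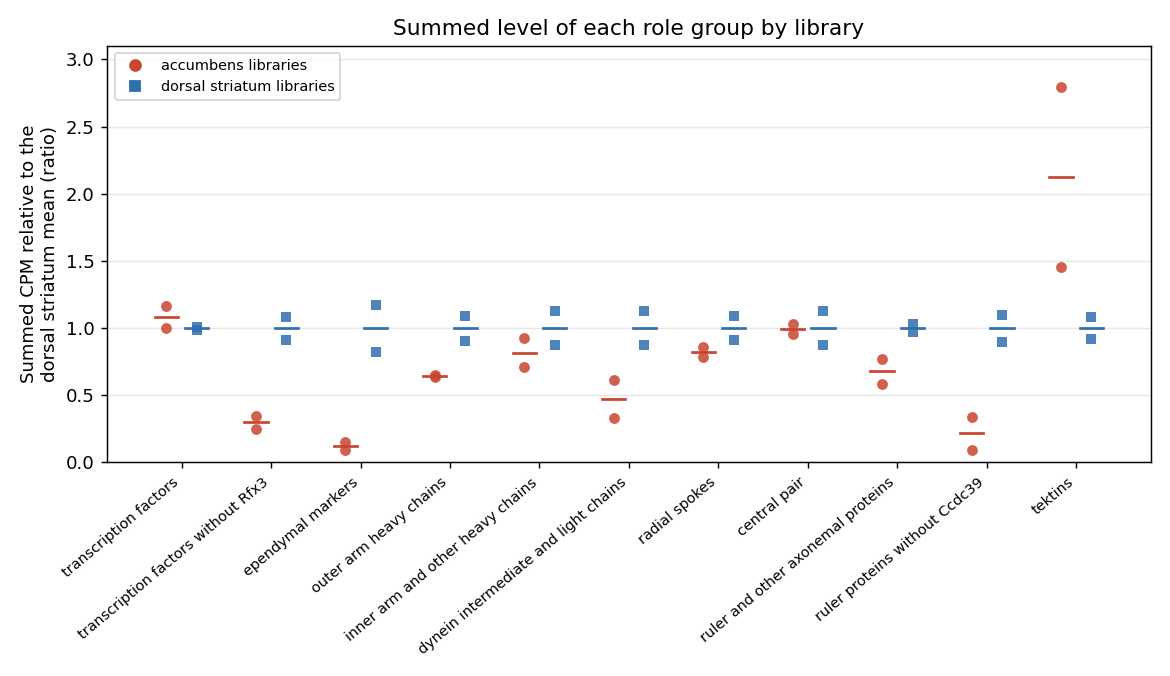
Summed CPM of each role group in every library, divided by the mean of the dorsal striatum libraries, with accumbens as circles left of the squares of dorsal striatum and bars at the region means. Ependymal markers, Foxj1 with Rfx2, and the ruler group without Ccdc39 lie lowest in accumbens, while the tektin sum, carried by Tekt5, lies above the dorsal striatum mean.

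Of the role groups in full, the summed ratio of accumbens to dorsal striatum was lowest for the 4 ependymal markers. They stood at 0.619 and 0.375 CPM in accumbens and 3.36 and 4.78 CPM in dorsal striatum. That accumbens sum was all Rarres2, and most of the dorsal striatum sum was Ccdc153. The 3 transcription factors, mostly Rfx3, stood at 198 and 231 CPM against 195 and 200 CPM, with overlap. Without Rfx3, Foxj1 with Rfx2 stood at 4.21 and 3.0 CPM against 13.1 and 11 CPM, without overlap. The 4 smaller dynein subunits stood at 2.23 and 4.13 CPM against 5.88 and 7.57 CPM. The 5 outer arm chains stood at 9.66 and 9.38 CPM against 13.4 and 16.1 CPM. All these sums were lower in both accumbens libraries. Central pair genes stood at 15.2 and 14.1 CPM against 12.9 and 16.7 CPM, with overlap. The inner arm and other heavy chains also overlapped, at 34.8 and 45.3 CPM against 42.6 and 55.3 CPM. By transcript length, the 11 tested genes over 10 kb had a median log2 fold change of -0.11 and the other 18 of -0.55, while all 354 tested genes over 10 kb had 0.01.

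Other genes of motile cilia, listed by function, were measured beside these. Of 85 genes for arm assembly, the nexin-dynein regulatory complex and further cilia and flagella associated proteins, 55 were tested and 0 passed the threshold, with 6 lower and 2 higher at an unadjusted edgeR p under 0.05. At that p, 8.27% of all tested genes were lower and 10.9% higher. DESeq2 called Cfap43 and Ccdc146, both lower in accumbens, which is 3.64% of the 55 and below its share of all genes, 5.62%. Leaving out either accumbens library raised the number of edgeR calls among these genes, as it did among all tested genes. Most calls among these genes were then lower in accumbens, while most calls among all tested genes were higher. The median log2 fold change of the 55 genes was -0.17. Of the 85, 40 (47.1%) were lower in both accumbens libraries without overlap and 9 (10.6%) higher. Both accumbens libraries had 0 counts, and both dorsal striatum libraries had counts, for 13 of the 85, and the reverse held for 0. The share of all rows with this pattern was not taken. Of all genes, the accumbens libraries also detected fewer, 16915 and 17417 against 19519 and 19532 in dorsal striatum. Among the genes with 10 to 100 counts in dorsal striatum, 7 of 33 cilia and flagella associated genes (21.2%) and 2 of 8 arm assembly genes had 0 counts in both accumbens libraries, against 4.76% of all rows in that range. Of the 45 genes, Ccdc153 was the only such case among 20 in that range (5.0%).

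Genes with few or no counts in accumbens included those of known parts of the motile axoneme and of its assembly, named after their values were seen. Cfap52 had 0 and 0 counts in accumbens and 13 and 21 in dorsal striatum, at least 8.25-fold lower against the floor of 3 counts over both libraries (edgeR adjusted p = 0.0995). Armc4, a docking factor gene of outer arms, had 0 and 0 against 8 and 12, and the assembly factor gene Dnaaf1 had 0 and 0 against 11 and 8. Cfap43 had 1 and 3 counts against 33 and 47 (log2 fold change -3.79, SE 0.92, edgeR adjusted p = 0.0859). Ccdc146 had 0 and 1 against 23 and 46, or 50.3-fold lower pooled over libraries with an exact 95% interval of 8.73 to 2013 for counting error. The 2 most abundant genes of each list had smaller fitted differences. Cfap97 and Cfap69 had log2 fold changes of 0.08 and -0.24, Drc1 and Gas8 of -0.37 and -0.58, and Lrrc6 and Spag1 of 0.69 and -0.48, none past the edgeR threshold. In CPM, Cfap97 had 108 and 90.1 in accumbens and 96.2 and 91.7 in dorsal striatum, and Drc1 had 15.7 and 17.8 against 20.4 and 23.0. Lrrc6, an assembly factor gene, had 16.4 and 25.3 against 12.8 and 13.0 CPM.

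**Figure D4:**
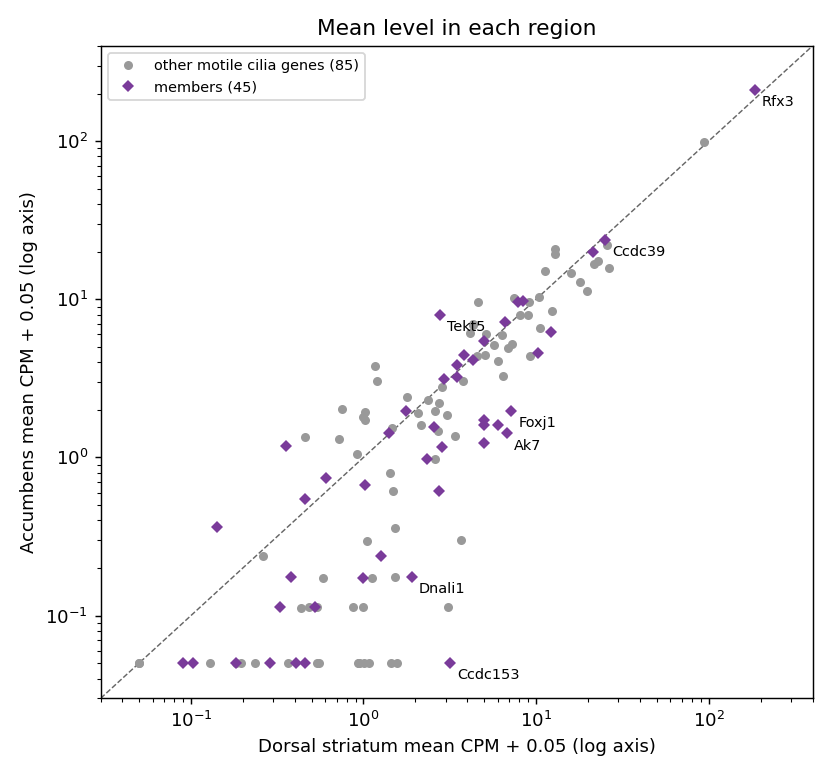
Mean CPM plus 0.05 of each gene in dorsal striatum (x axis) and accumbens (y axis), both log axes, with the 45 genes as diamonds, 85 other motile cilia genes as circles and equality as a dashed line. Genes under about 10 CPM spread widely, many far below the line, with Ccdc153 at 0 in accumbens, and some above it, such as Tekt5. Rfx3 and Ccdc39 lie near the line.

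Regulators of multiciliation gave 0 calls among 9 tested genes, with 0 at an unadjusted edgeR p under 0.05 and 0 in DESeq2, and their sum was 81.8 and 75 CPM in accumbens and 81.6 and 71.4 CPM in dorsal striatum. Rfx4 had 24.4 and 32.9 CPM against 25.7 and 23.0 CPM. Primary cilium and intraflagellar transport genes also gave 0 calls among 32. At an unadjusted edgeR p under 0.05, 3 were lower, against 8.27% of all tested genes. DESeq2 called Ift88, lower in accumbens, and 5.62% of all tested genes. Their sum was 1526 and 1674 CPM in accumbens and 1631 and 1730 CPM in dorsal striatum. Both sums overlapped between the regions. Kif3a, a motor gene of that transport, had 237 and 372 CPM against 338 and 352 CPM. Cytoplasmic dynein genes gave 0 calls among 9. At an unadjusted edgeR p under 0.05 there were 5, with 4 of them higher, where 10.9% of all tested genes were higher. DESeq2 called Dynll2 and Dynlrb1, both higher in accumbens. Dync1h1, its heavy chain, had 1223 and 1235 CPM against 936 and 1060 CPM.

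In edgeR's main fit, of region alone with TMM scaling and filterByExpr, non-ciliary ependymal surface genes held the only calls among the ciliary and ependymal lists. Of 11, the junction genes Gja1 and Cdh2 and the lipid binder gene Dbi rose in accumbens past the threshold, with edgeR adjusted p of 0.0491, 0.0431 and 0.0431 and log2 fold changes of 1.01, 0.99 and 1.14. The 3 are also abundant in astrocytes and other cells. The count was 0 without dorsal striatum replicate 2, 0 with library size alone as the scaling, 1 without dorsal striatum replicate 1, and 5 (3 higher, 2 lower) without accumbens replicate 1. By CPM, 4 of the 11 were higher in both accumbens libraries without overlap, and 1 was lower. The higher ones were the called genes and Cd24a (1.16 on the log2 scale, SE 0.58, edgeR adjusted p = 0.326). The lower one was Vim, an intermediate filament gene, with 8.92 and 4.25 CPM in accumbens and 16.3 and 9.96 CPM in dorsal striatum (-0.99 on the log2 scale, SE 0.46, edgeR adjusted p = 0.292). The 11 genes summed to 392 and 396 CPM in accumbens and 301 and 243 CPM in dorsal striatum, without overlap. Choroid plexus genes, of the other epithelium of the ventricles, gave 0 calls among 6 tested, and 0 in DESeq2. At an unadjusted edgeR p under 0.05, 1 was lower and 1 higher, against 8.27% and 10.9% of all tested genes. The transthyretin gene Ttr had 0 and 0 counts against 1 and 1, Folr1 had 0 and 0 against 0 and 1, and Aqp1 had 0 and 0 against 4 and 0. Kcnj13, a potassium channel gene, had 0 and 5 counts against 24 and 25, and the transcription factor gene Otx2 had 4 and 2 against 14 and 18, both lower without overlap. Kl, the klotho gene, had 83 and 82 counts against 31 and 54, higher without overlap. The summed level of its 13 list genes was 182 and 224 CPM against 228 and 182 CPM, mostly Enpp2, which oligodendrocytes also express.

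Markers of other cell types were summed in the same libraries. Of 12 tested neuroblast and progenitor genes of the subventricular zone, the germinal layer beside the ependyma, 0 passed, and DESeq2 called 0. At an unadjusted edgeR p under 0.05, 3 were higher, against 10.9% of all tested genes. All 14 genes of this list summed to 264 and 231 CPM in accumbens and 166 and 181 CPM in dorsal striatum. Astrocyte genes summed to 3560 and 3078 against 3117 and 2249 CPM, tanycyte genes to 111 and 127 against 70.9 and 79.5 CPM, and fibroblast genes to 13.5 and 10.4 against 13.2 and 11.2 CPM. The astrocyte and fibroblast sums overlapped between regions, and most of the tanycyte sum was Crym, which other striatal cells also express. Striatal projection neuron genes, high in all 4 libraries, summed to 5801 and 4765 against 6455 and 6575 CPM, with Rgs9 called lower in accumbens (edgeR adjusted p = 0.0233). Cortical glutamatergic genes summed to 363 and 183 CPM in accumbens and 140 and 57.2 CPM in dorsal striatum. It was higher in both accumbens libraries. The part of these other cell types in the ciliary differences was not tested.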

How the data were processed

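For each library the authors deposited whole-number read counts by gene symbol, without normalization. STAR 2.0.0e, HTSeq and the build mm10 are named in the submitters' processing notes. No source used here gives the annotation or the strand setting. Rows for reads in no feature (27.5% to 35.4% of all counted reads), ambiguous reads (6.06% to 9.46%) and reads with several alignments (6.98% to 10.2%) stayed out of totals and tests, as did a row named unknown. HTSeq leaves ambiguous reads uncounted, which lowers genes that overlap others.

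Counts were scaled with TMM factors, filtered with filterByExpr and put through the two-sided quasi-likelihood test of edgeR 4.0.16 (R 4.3.3) on a model of region alone, with Benjamini-Hochberg adjustment over 14493 genes at 0.05. Fold changes are accumbens over dorsal striatum, and each SE is that change, without its sign, over the square root of F. Levels are TMM-scaled CPM. Intervals and floors cover counting error only, since reads carry no molecular identifiers. Genes were placed on GENCODE M21 (GRCm38, the chromosomes of mm10). Alternatives were tried in scaling, filter, tool (DESeq2 1.42.0, limma 3.58.1), replicate block, offsets for length and GC content, and each library left out.

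The genes and lists were chosen with earlier results of these data known. Named genes were, for each role, up to 3 with the most counts, and the 3 largest fitted folds in each direction. Others named were chosen after their values were seen. From each further list the rule took members past the threshold or the 2 with the highest mean CPM, of which some are given.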

Additional observations from a re-analysis of the deposited data

How the results depend on the processing

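The count of calls among all genes was 186, and 1203 without the low-count filter, 473 with at least 10 counts in every library, 814 with DESeq2, 431 with limma-voom, 122 with the GC content offset and 843 with the replicate block. Leaving out a library gave 109 to 4464. Of the 186, 144 were higher and 42 lower, and with library size alone 72 were higher and 172 lower, a scaling that put the median of all genes at -0.15 instead of 0.02. Among the ciliary genes the count of 0 became 1 with library size alone, with DESeq2, with limma-voom and with the replicate block, and 2 without the low-count filter, while leaving out a library gave 0 to 12. The calls were Ccdc153, and Ak7 where there were 2. Over genes, the deviations of same-numbered libraries from their region means had r = 0.0326. With 2 libraries per region this is a single correlation, so it cannot tell whether the replicate numbers pair the samples.

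The median log2 fold change of -0.11 was -0.28 with library size alone, -1.17 without the low-count filter, -0.81 with limma-voom, -0.56 with the replicate block and 0.09 with at least 10 counts in every library. That last filter keeps 15 genes, among them Foxj1, Dnah7b and Rsph4a, which were lower in accumbens. It drops most of the genes at least 2-fold lower there, such as Ccdc153 and Ak7, and also genes that overlapped, such as Dnah10 and Dnaic1. Leaving out a library gave -1.08 to -0.13. The summed log2 ratio of -0.07 was -0.24 with library size alone, -0.41 without Rfx3 and -0.34 for axonemal genes only, and -0.18 to 0.02 with a library left out. The number higher in both accumbens libraries was 3, and 1 with upper-quartile scaling or library size alone (scalings added after the data were seen), and the number lower was 21 to 24 over the 4 scalings.

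Of 299 fold changes of named genes under the alternatives, 259 kept direction and side of the threshold, 20 crossed it and 20 reversed. Besides the leave-one-out fits, Dnah2 was -0.38 with limma-voom and -0.22 with the replicate block. Dnaic1 was -0.00 with library size alone, -0.17 with limma-voom and -0.04 with the replicate block. Rsph1 was -0.05 with library size alone and -0.08 with the transcript length offset, and Rsph3b -0.04 with library size alone. With a library left out the values ran from -0.23 to 0.05 for Ccdc39, -0.29 to 0.07 for Dnah1, -1.89 to 1.12 for Dnah2, -0.66 to 0.77 for Dnah5, -1.48 to 1.02 for Dnaic1, -0.46 to 0.24 for Hydin, -0.51 to 0.55 for Rsph1 and -0.27 to 0.68 for Rsph3b. The cause was not tested. With 2 libraries per region and few counts per gene, small differences were not detectable at this depth.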
